A study of Mus musculus with 6 samples.

Results

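The genes encoding heat shock proteins, DnaJ co-chaperones and protein disulfide isomerases were compared between mice with lung cancer that were treated with artemisinin and untreated mice of the same cancer model. The members were all genes of the count table whose symbol begins with Hsp90, with Hspa, Hspb, Hspd, Hspe or Hsph and a digit, with Dnaja, Dnajb or Dnajc and a digit, or with Pdia and a digit. They numbered 75 of the 18238 genes in the table. RNA was sequenced from 3 artemisinin mice (artemisinin replicates 1 to 3) and 3 model mice (model replicates 1 to 3), and the labels state the comparison of the treated with the untreated mice as its purpose. Artemisinin is a plant-derived sesquiterpene lactone used against malaria. The labels name lung cancer as the cell type and both groups carried it, while the tissue, the way the cancer was induced, the strain, sex, age, dose and duration are not stated in the labels used here. No healthy mice were analysed here, so every difference is between treated and untreated mice with cancer.

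Chaperones of the HSP70 family bind exposed hydrophobic stretches of unfolded proteins and release them on cycles of ATP, DnaJ proteins bring them their clients and stimulate the ATPase, and HSP90 acts later on signalling proteins and receptors. Small heat shock proteins of the Hspb family hold unfolding proteins without ATP, and several of them are abundant in muscle, where they protect the contractile apparatus. In the endoplasmic reticulum the HSP70 BiP (Hspa5), the HSP90 Grp94 (Hsp90b1), their DnaJ partners and the disulfide isomerases fold secreted proteins, among them the surfactant proteins of lung alveolar type 2 cells. Cytosolic chaperones are induced through heat shock elements bound by Hsf1, and those of the endoplasmic reticulum through stress elements bound by Atf6 with NF-Y.

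The promoters of the endoplasmic reticulum members are shown first, because 3 of them, and the isomerase gene Pdia6, share a stress element. RefSeq (GRCm38.p6) gave a promoter window, 250 bases before to 50 bases after the start, for 61 of the 75 members. The endoplasmic reticulum stress element was searched on both strands as CCAAT, 9 bases of any kind and CCACG. It was present in 4 of the 61 members (6.56%) and in 37 of all 27025 genes with a window (0.137%). A gene counted once if any of its windows held the element. The 150 bases before each start are given 5′ to 3′ on the strand of the gene, with the element in capitals. They come from chr2:34771940-34772089 (plus strand) for Hspa5, chr10:86705445-86705594 (minus strand) for Hsp90b1, chr14:118937782-118937931 (plus strand) for Dnajc3 and chr12:17266439-17266588 (plus strand) for Pdia6.
Hspa5: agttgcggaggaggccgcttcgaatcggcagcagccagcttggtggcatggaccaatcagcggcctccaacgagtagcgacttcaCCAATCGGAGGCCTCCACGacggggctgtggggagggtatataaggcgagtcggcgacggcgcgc
Hsp90b1: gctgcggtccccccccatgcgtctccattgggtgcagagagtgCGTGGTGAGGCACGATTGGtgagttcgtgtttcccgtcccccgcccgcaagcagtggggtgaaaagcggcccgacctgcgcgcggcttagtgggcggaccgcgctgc
Dnajc3: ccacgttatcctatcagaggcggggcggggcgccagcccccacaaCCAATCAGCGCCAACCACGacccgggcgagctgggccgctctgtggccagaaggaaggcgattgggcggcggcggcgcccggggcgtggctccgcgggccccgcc
Pdia6: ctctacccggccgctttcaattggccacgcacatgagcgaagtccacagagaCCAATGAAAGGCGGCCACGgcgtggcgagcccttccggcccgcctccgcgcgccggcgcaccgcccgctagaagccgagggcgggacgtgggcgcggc
The element ended 46 bases before the start in Hspa5, 79 in Pdia6, 86 in Dnajc3 and 88 in Hsp90b1. In Hsp90b1 the printed copy lies in reverse orientation, and a further copy lies upstream of the printed stretch. A heat shock element was searched as GAANNTTC or TTCNNGAA, a pair of inverted units. It was present in 15 of the 61 members (24.6%) and in 17.0% of all genes with a window. Its holders included Hspa1a, Hspa1b, Hsph1, Dnaja1, Hspd1, Hspe1, Hspb1, Hspb3, Hspb6 and Hspb8. The CArG box is the motif of serum response factor in muscle genes. It was present in 1 of the 61 members, Dnajc16 (1.64%), and in 1.81% of all genes with a window. These matches describe letters in a window and say nothing of binding.

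The libraries held 25566173 to 33126585 counts in artemisinin mice and 32964061 to 34745497 in model mice. The 75 members took 0.761%, 0.916% and 0.835% of the counts in artemisinin replicates 1, 2 and 3, against 0.937%, 0.812% and 0.784% in model replicates 1, 2 and 3. Between 73 and 75 members were detected in each library. Lung epithelial markers were present in all 6 libraries, with alveolar type 2 markers (10 genes) summing to 6744 to 20743 normalised CPM (read counts scaled to a common library size) in artemisinin mice and 49255 to 73092 in model mice. All 10 were lower in every artemisinin mouse than in every model mouse, and 6 fell by the test described below. Each artemisinin library stood apart in some marker lists. Artemisinin replicate 1 was highest in cardiac muscle markers and in adipocyte markers, which summed to 640, 81.3 and 96.4 normalised CPM in artemisinin replicates 1, 2 and 3, against 34.2 to 59.9 in model mice. Artemisinin replicate 2 was highest in skeletal muscle markers and in keratinocyte markers, which summed to 11.3, 338 and 4.21 in artemisinin mice, against 2.70 to 3.25 in model mice. Artemisinin replicate 3 was highest in neutrophil markers, which summed to 718, 1040 and 4924 in artemisinin mice, against 87.8 to 134 in model mice, with 6 of 9 called higher. In these bulk libraries, fewer cells of a type and less RNA per cell cannot be told apart.

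Levels of different members are compared as the deposited FPKM, which are scaled by gene length. Hspa8, the constitutive cytosolic HSP70, had the highest mean FPKM of the members at 437.8 in artemisinin mice and 388.4 in model mice. Hsp90ab1, the constitutive HSP90, followed at 430.3 FPKM in artemisinin mice and 388.1 in model mice, and the ranges of these 2 genes overlapped. Next came 3 chaperones of the endoplasmic reticulum. Hsp90b1 had 290.2 FPKM in artemisinin mice and 311.3 in model mice. Pdia3, the isomerase that works on glycoproteins, had 235.7 in artemisinin mice and 244.7 in model mice, and Hspa5 had 204.9 in artemisinin mice and 247.9 in model mice. Hsp90aa1, the inducible HSP90, ranked sixth and Pdia6 seventh, while the stress-inducible HSP70 genes Hspa1a and Hspa1b stood far lower, at 2.15 and 2.90 FPKM in artemisinin mice, against 3.34 and 6.77 in model mice. Among the Hspb members Hspb1 led at 99.1 FPKM in artemisinin mice and 44.2 in model mice.

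**Figure D1:**
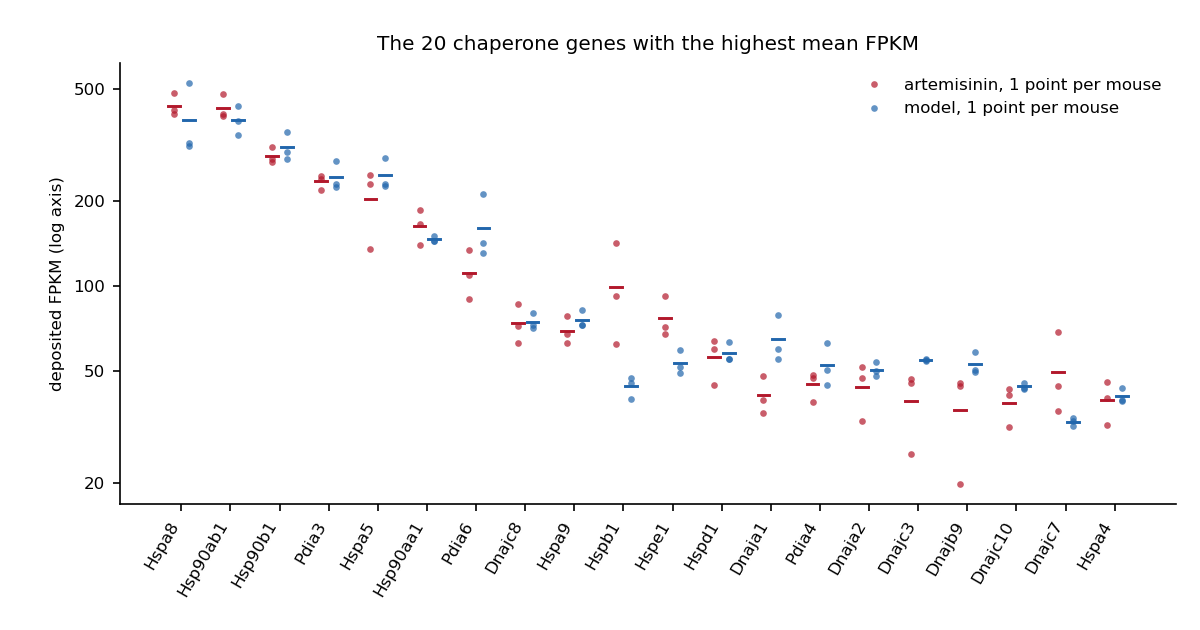
Deposited FPKM (log axis) of the 20 members with the highest mean, 1 point per mouse and a bar at the group mean, artemisinin mice left of model mice for each gene. Hspa8 and Hsp90ab1 lead with overlapping groups, while all 3 artemisinin values of Hspb1 (62.2 to 143 FPKM) lie above its model values (39.9 to 47.3 FPKM).

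Of the 75 members, 71 passed the expression filter and were tested with edgeR among 15242 genes. With artemisinin 2 members rose, Hspb7 and Dnajb5, and 1 fell, Dnajc28, at an adjusted p under 0.05 (edgeR, Benjamini-Hochberg over all genes). This is 4.23% of the tested members, where the same rule called 4.47% of all genes tested (2.17% higher and 2.30% lower), so the share of members called was near the background. The groups did not overlap for 34 of the 71 members (47.9%), 16 higher and 18 lower with artemisinin. Over all genes this happened for 33.6%, 16.3% higher and 17.3% lower. At an unadjusted p under 0.05 edgeR gave 11 members higher and 9 lower, against 13.7% and 11.0% of all genes. DESeq2 called 9 members higher and 4 lower, and it called 14.1% of all genes, 7.70% higher and 6.37% lower. With 1 library left out, edgeR called between 0.110% and 8.96% of all genes, so the calls of single members given below move with that background. The median log2 fold change, artemisinin over model, was -0.08 for the members and 0.04 for all genes. The median size of the change was 0.30 for the members and 0.33 for all genes, and 14.1% of members and 14.6% of all genes changed by over 1 on the log2 scale.

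By compartment the members spread differently. The medians of the log2 fold changes were 0.01 for 13 cytosolic HSP90, HSP70 and HSP110 genes, -0.01 for 19 cytosolic and nuclear DnaJ genes, -0.34 for 10 endoplasmic reticulum members and -0.16 for 5 disulfide isomerases. They were 0.06 for 8 mitochondrial chaperones and 2.14 for the 4 tested muscle small heat shock genes. These are counts and medians without a test of one list against another.

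**Figure D2:**
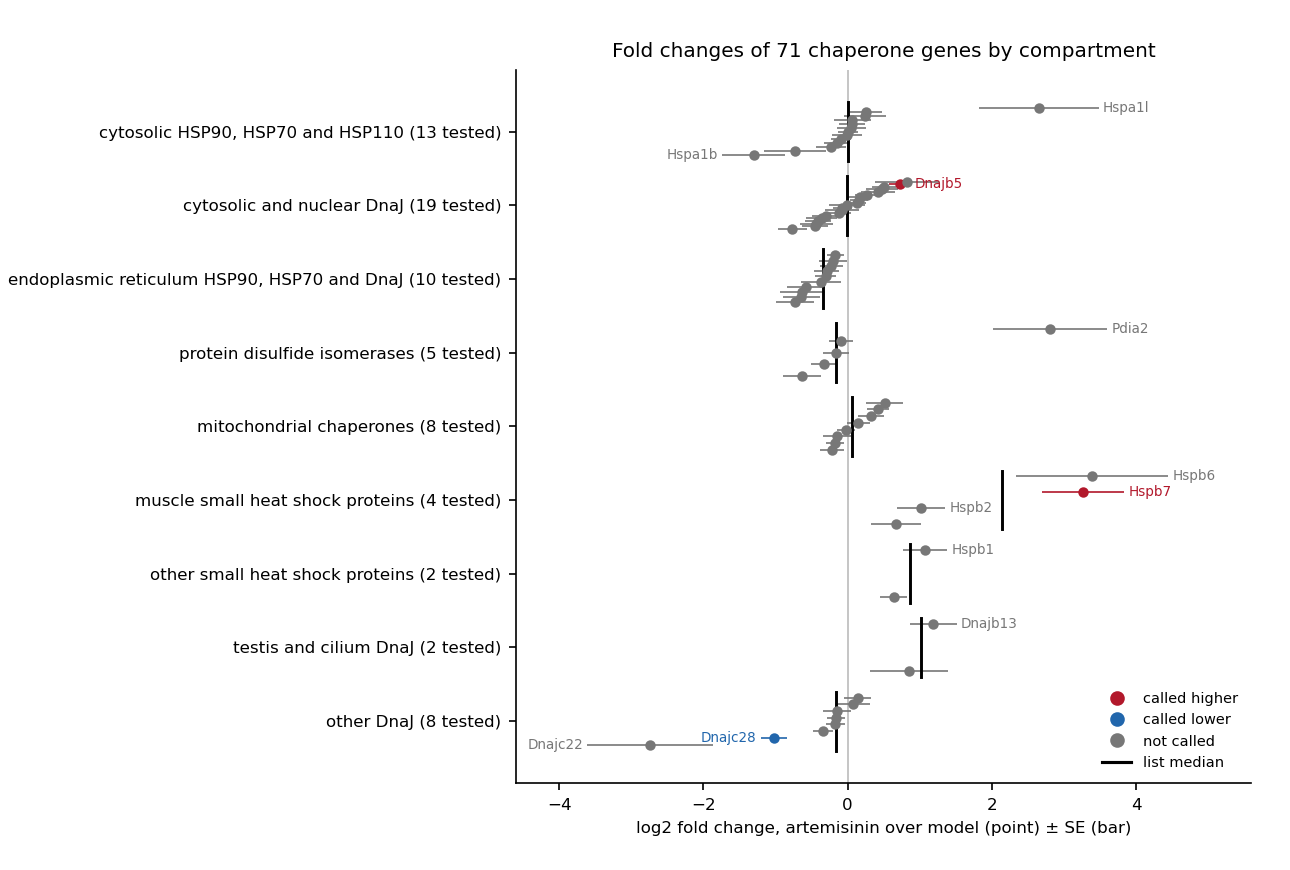
Log2 fold change, artemisinin over model (point), with its SE (bar) for each of the 71 tested members in 9 lists, with a vertical mark at each list's median. Hspb7 (3.26) and Dnajb5 (0.72) were called higher and Dnajc28 (-1.02) lower, and all 10 endoplasmic reticulum HSP90, HSP70 and DnaJ members lie below 0.

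Of the 4 tested small heat shock genes of muscle 1 rose, Hspb7, and 3 were higher without overlap of the groups. Among all genes tested, 2.17% were called higher and 16.3% were higher without overlap. Artemisinin replicate 2 was the highest library for each of the 4. Hspb7 (chr4:141420779-141425310, GRCm38.p6) encodes a small heat shock protein of heart and skeletal muscle. It had 60.3, 114 and 20.7 normalised CPM in artemisinin replicates 1, 2 and 3, against 6.65, 7.72 and 5.86 in model replicates 1, 2 and 3. Every artemisinin value exceeded every model value, and the artemisinin values spread over a wider range, with means of 64.8 ± 46.6 in artemisinin mice and 6.74 ± 0.933 in model mice (SD, n = 3 each). Hspb7 rose 9.61-fold (log2 fold change 3.26 ± 0.57 SE, edgeR adjusted p = 0.0285). The call was lost without artemisinin replicate 1 (edgeR adjusted p = 0.0695) and without any 1 of the model replicates (0.0859 to 0.148), and kept without artemisinin replicate 2 (2.58, adjusted p = 0.0213).

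Hspb6, also called Hsp20, is abundant in muscle. It had 20.1, 185 and 10.9 normalised CPM in artemisinin replicates 1, 2 and 3, against 8.74, 6.45 and 5.33 in model mice. The groups did not overlap, but 1 library held most of the difference. The log2 fold change was 3.39 ± 1.05 (SE), which did not pass the test (edgeR adjusted p = 0.115), and it was 1.18 without artemisinin replicate 2. Hspb2, the partner of Hspb3 in muscle, had 8.35, 16.0 and 8.90 normalised CPM in artemisinin mice, against 5.10, 4.54 and 6.78 in model mice, again without overlap. Its log2 fold change of 1.02 ± 0.33 (SE) did not pass (edgeR adjusted p = 0.124) and was 0.66 without artemisinin replicate 2. Hspb2 (chr9:50751072-50752354) lies wholly inside the annotated span of Cryab, the gene of alpha-B crystallin, by 1283 bases, and reads of the pair may not have been told apart.

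Cryab, another small heat shock protein but no member by its symbol, had 252, 365 and 110 normalised CPM in artemisinin mice, against 108, 128 and 138 in model mice. Its groups overlapped (log2 fold change 0.96 ± 0.39 SE, edgeR adjusted p = 0.188). Hspb8, which works with Bag3 in the removal of misfolded proteins, had 57.3, 115 and 45.8 normalised CPM in artemisinin mice, against 35.2, 52.3 and 49.9 in model mice. These groups overlapped too (log2 fold change 0.67 ± 0.35 SE, edgeR adjusted p = 0.276), and the value was 0.17 without artemisinin replicate 2. Hspb3 was below the expression filter with 14, 40 and 0 counts in artemisinin replicates 1, 2 and 3, against 4, 0 and 0 in model replicates 1, 2 and 3.

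Outside the muscle list stood Hspb1 (Hsp27), a widely expressed small heat shock protein that binds actin and other clients. It had 78.8, 130 and 53.3 normalised CPM in artemisinin mice, against 43.1, 43.5 and 37.6 in model mice. The groups did not overlap, and the log2 fold change of 1.08 ± 0.30 (SE) did not pass (edgeR adjusted p = 0.0922). It was 0.67 without artemisinin replicate 2 (edgeR adjusted p = 0.0814), and it passed without artemisinin replicate 3 (1.29, edgeR adjusted p = 0.0407). Artemisinin replicate 2 had the highest value of Hspb1 and the highest keratinocyte and skeletal muscle markers. The part of keratinocytes and of muscle in these values was not tested. Hspb11, a subunit of the intraflagellar transport complex of cilia, had 15.2, 12.9 and 12.5 normalised CPM in artemisinin mice, against 8.26, 9.39 and 8.45 in model mice, also without overlap (log2 fold change 0.64 ± 0.19 SE, edgeR adjusted p = 0.106).

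**Figure D3:**
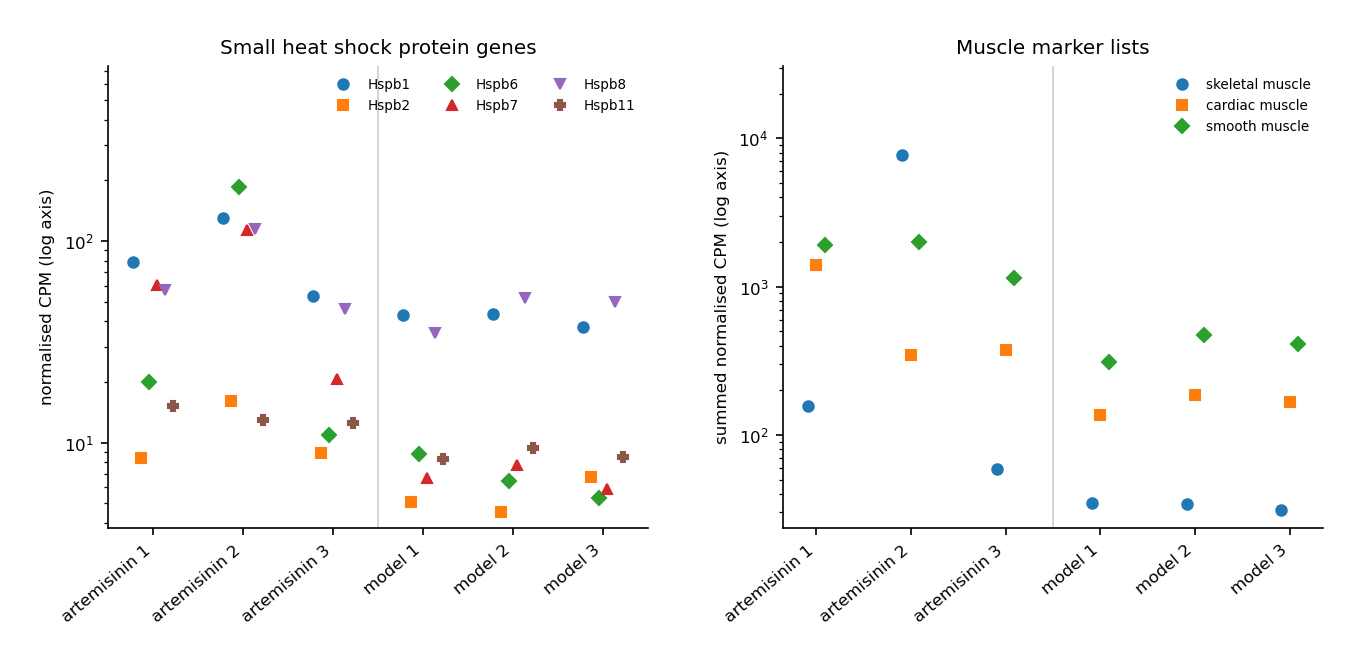
Left, normalised CPM (log axis) of 6 small heat shock genes in each mouse, artemisinin mice left of model mice. Right, the summed normalised CPM (log axis) of the skeletal, cardiac and smooth muscle marker lists in the same mice: Hspb6 (185 normalised CPM) and the skeletal muscle sum (7703) peak in artemisinin replicate 2, and all 3 smooth muscle sums are higher in artemisinin mice.

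The sums of the 3 muscle marker lists were higher in every artemisinin mouse than in every model mouse. The skeletal and smooth muscle sums were highest in artemisinin replicate 2, and the cardiac sum in artemisinin replicate 1. The 12 skeletal muscle markers summed to 156, 7703 and 59.1 normalised CPM in artemisinin replicates 1, 2 and 3, against 31.0 to 34.9 in model mice. Myh4 and Pvalb, a fast myosin and parvalbumin, were at 0 counts in every library but artemisinin replicate 2, and Acta1, the skeletal actin, had 84953 counts there against 0 to 25 in the other libraries. None of the 5 skeletal markers that were tested was called. The 10 cardiac markers summed to 1402, 345 and 374 normalised CPM in artemisinin mice, against 137 to 187 in model mice. Of these 10, 2 rose, Actc1 and Sln, which were also the only 2 without overlap of the groups. In artemisinin replicate 2 Actc1 and Sln had 205 and 61.5 of the 345 normalised CPM. Myh6, Myl7, Tnni3 and Ryr2 were lower in that library than in every model mouse, and Myl4, Nppa, Pln and Tnnt2 lay within the model range. The 9 smooth muscle markers summed to 1144 to 2004 normalised CPM in artemisinin mice, against 311 to 474 in model mice, and all 9 rose. Without artemisinin replicate 2 the median log2 fold change of the 4 muscle small heat shock genes was 0.92, in place of 2.14. The part of muscle tissue in the small heat shock values was not tested.

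The cytosolic HSP90 and HSP70 machinery showed no call among 13 tested genes, of which 7 had a log2 fold change above 0 and 6 below 0. At an unadjusted p under 0.05 edgeR gave 1 higher and 1 lower, Hspa1l and Hspa1b, against 13.7% and 11.0% of all genes. Hsp90aa1 had 448, 536 and 380 normalised CPM in artemisinin mice, against 436, 438 and 429 in model mice (log2 fold change 0.06 ± 0.18 SE, edgeR adjusted p = 0.840). Hsp90ab1 had 950, 1223 and 969 in artemisinin mice, against 1150, 984 and 899 in model mice (0.05 ± 0.20 SE, edgeR adjusted p = 0.890). Hspa8 had 837, 867 and 968 normalised CPM in artemisinin mice, against 1168, 693 and 692 in model mice (0.07 ± 0.25 SE, edgeR adjusted p = 0.887). In all 3 genes the groups overlapped, and the sign of each difference turned when some of the libraries were left out. Hsph1, the HSP110 that exchanges nucleotide on HSP70, had 35.0, 47.0 and 52.6 normalised CPM in artemisinin mice, against 47.4, 33.6 and 31.7 in model mice, with overlap (0.26 ± 0.22 SE, edgeR adjusted p = 0.490).

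The stress-inducible HSP70 genes Hspa1a (chr17:34969359-34972156) and Hspa1b (chr17:34956429-34959238) lie 10120 bases apart. Their longest open reading frames were 99.43% identical (1918 identical of 1929 aligned bases), so reads may have been split between them. Hspa1b had 5.36, 12.7 and 5.95 normalised CPM in artemisinin mice, against 24.0, 24.2 and 11.0 in model mice. Artemisinin replicate 2 overlapped model replicate 3 (log2 fold change -1.30 ± 0.43 SE, edgeR adjusted p = 0.129), and without artemisinin replicate 2 the value was -1.80 and passed (adjusted p = 0.0410). Hspa1a had 3.73, 8.25 and 5.61 normalised CPM in artemisinin mice, against 13.5, 10.4 and 5.23 in model mice (-0.73 ± 0.43 SE, edgeR adjusted p = 0.330). With the counts of both copies summed, the level was 9.09, 20.9 and 11.6 normalised CPM in artemisinin mice, against 37.5, 34.6 and 16.3 in model mice. The summed gene had a log2 fold change of -1.09 ± 0.41 (SE) and did not pass (edgeR adjusted p = 0.163). The third gene of this cluster, Hspa1l, best known from testis, had 0.924, 6.40 and 1.29 normalised CPM in artemisinin mice, against 0.334, 0.556 and 0.473 in model mice. Its groups did not overlap and artemisinin replicate 2 was highest (2.65 ± 0.83 SE, edgeR adjusted p = 0.115; 1.28 without that library).

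Among 19 cytosolic and nuclear DnaJ genes 1 rose and 0 fell, with 9 log2 fold changes above 0 and 10 below 0. Of all genes tested, 2.17% were called higher and 2.30% lower, and 46.8% lay below 0. The riser was Dnajb5 (chr4:42949867-42959425), a DnaJ protein that takes part in the redox control of the histone deacetylase Hdac4 in heart muscle. It had 35.1, 37.1 and 29.5 normalised CPM in artemisinin mice, against 19.6, 19.6 and 22.3 in model mice, with means of 33.9 ± 3.93 in artemisinin mice and 20.5 ± 1.54 in model mice (SD, n = 3 each). The groups did not overlap and spread little, and the gene rose 1.65-fold (log2 fold change 0.72 ± 0.15 SE, edgeR adjusted p = 0.0454). The adjusted p lay above 0.05 with any 1 of the 6 libraries left out (0.0561 to 0.201), while the log2 fold change stayed between 0.65 and 0.78.

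Dnaja1 and Dnajb1, the main stress-linked partners of cytosolic HSP70, were lower in every artemisinin mouse than in every model mouse. Dnaja1 had 121, 144 and 164 normalised CPM in artemisinin mice, against 302, 203 and 225 in model mice (log2 fold change -0.77 ± 0.20 SE, edgeR adjusted p = 0.0814). Dnajb1 had 35.7, 51.6 and 51.0 normalised CPM in artemisinin mice, against 71.6, 56.9 and 60.8 in model mice (-0.45 ± 0.18 SE, edgeR adjusted p = 0.186; -0.30 without artemisinin replicate 1). Neither passed the test. Over the 19 genes the groups did not overlap in 7 that were higher and 4 that were lower with artemisinin. Among all genes tested, 16.3% were higher and 17.3% lower without overlap.

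Heat shock factors and cytosolic cochaperones outside the members were taken from a list of 35 genes, of which 33 were tested. Of these 1 rose and 0 fell, with a median log2 fold change of 0.05. Over all genes tested, 2.17% were called higher and 2.30% lower, and the median was 0.04. The riser was Unc45b, the chaperone that folds myosin in muscle. It had 40.1, 47.0 and 22.7 normalised CPM in artemisinin mice, against 10.8, 9.79 and 14.7 in model mice, with no overlap (3.11-fold, log2 fold change 1.63 ± 0.30 SE, edgeR adjusted p = 0.0320). Fkbp4 and Fkbp5, immunophilins of HSP90 complexes with steroid receptors, had opposite signs and did not pass. Fkbp4 had 131, 144 and 125 normalised CPM in artemisinin mice, against 276, 195 and 210 in model mice (-0.77 ± 0.18 SE, edgeR adjusted p = 0.0551). Fkbp5 had 33.8, 47.9 and 45.2 in artemisinin mice, against 30.6, 26.6 and 25.3 in model mice (0.62 ± 0.17 SE, edgeR adjusted p = 0.0900). Hsf1, the factor that drives heat shock genes, had 41.6, 32.5 and 36.3 normalised CPM in artemisinin mice, against 30.4, 34.0 and 31.3 in model mice (0.21 ± 0.14 SE, edgeR adjusted p = 0.398).

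In the endoplasmic reticulum, all 10 HSP90, HSP70 and DnaJ members had log2 fold changes below 0, between -0.73 and -0.17, where 46.8% of all genes tested lay below 0. None of the 10 passed the test, and 2 lower and 0 higher had an unadjusted p under 0.05 in edgeR. Of all genes tested, 11.0% were lower and 13.7% higher at that threshold. In 7 of the 10 every artemisinin value was below every model value, where this held for 17.3% of all genes. Measured as log2 values relative to the model mean, the list's median was -0.81, -0.15 and -0.25 in artemisinin replicates 1, 2 and 3, against 0.09, -0.06 and -0.01 in model replicates 1, 2 and 3. The size rested largely on artemisinin replicate 1, without which the median log2 fold change was -0.17.

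Hspa5, the chaperone BiP that also holds the stress sensors of the organelle inactive, had 325, 635 and 556 normalised CPM in artemisinin mice, against 762, 597 and 600 in model mice. Artemisinin replicate 1 was lowest and replicate 2 lay within the model range (log2 fold change -0.37 ± 0.27 SE, edgeR adjusted p = 0.427; -0.13 without replicate 1). Hsp90b1 (Grp94) had 721, 869 and 739 normalised CPM in artemisinin mice, against 1026, 841 and 811 in model mice, with overlap (-0.20 ± 0.19 SE, edgeR adjusted p = 0.532). Dnajc3, the co-chaperone also known as an inhibitor of eIF2alpha kinases, had 124, 245 and 223 in artemisinin mice, against 301, 286 and 298 in model mice. Here the groups did not overlap (-0.58 ± 0.25 SE, edgeR adjusted p = 0.212; -0.34 without artemisinin replicate 1). All 3 carry the stress element printed above, and none passed the test. The annotation of Hspa5 overlaps that of Rabepk by 1921 bases.

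Dnajb9 (ERdj4), a BiP partner that represses the sensor Ire1, had 35.1, 83.9 and 80.1 normalised CPM in artemisinin mice, against 115, 95.7 and 96.7 in model mice (-0.63 ± 0.31 SE, edgeR adjusted p = 0.259; -0.32 without artemisinin replicate 1). Dnajb11 (ERdj3), which binds unfolded clients directly, had 60.7, 84.5 and 80.2 in artemisinin mice, against 92.6, 88.5 and 82.4 in model mice, with overlap (-0.23 ± 0.16 SE, edgeR adjusted p = 0.404; -0.0936 without artemisinin replicate 1). Hspa13, a microsomal HSP70-like ATPase, had the lowest log2 fold change of the 10. It had 30.7, 64.5 and 45.1 normalised CPM in artemisinin mice, against 88.4, 67.0 and 76.8 in model mice, without overlap (-0.73 ± 0.27 SE, edgeR adjusted p = 0.156). Without artemisinin replicate 2 it was -1.03 and passed (adjusted p = 0.0400).

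Of the 5 disulfide isomerases with a Pdia symbol none passed, and 4 log2 fold changes lay below 0 and 1 above. At an unadjusted p under 0.05 in edgeR 1 was higher and 1 lower, against 13.7% and 11.0% of all genes. Pdia6, which limits the signalling of the stress sensors, had 183, 292 and 224 normalised CPM in artemisinin mice, against 480, 310 and 294 in model mice. The groups were separated by a narrow gap (-0.63 ± 0.26 SE, edgeR adjusted p = 0.190; -0.38 without model replicate 1). Pdia4 (ERp72) had 97.5, 127 and 122 in artemisinin mice, against 176, 136 and 124 in model mice (-0.33 ± 0.18 SE, edgeR adjusted p = 0.306; -0.17 without model replicate 1), and Pdia3 (ERp57) had 616, 643 and 551 in artemisinin mice, against 775, 623 and 618 in model mice (-0.16 ± 0.18 SE, edgeR adjusted p = 0.610). Both overlapped between groups. Pdia2, an isomerase best known from pancreas, ran the other way at a low level, with 4.21, 1.10 and 1.06 normalised CPM in artemisinin mice, against 0.152, 0.494 and 0.252 in model mice. Its groups did not overlap, and artemisinin replicate 1 was highest (2.81 ± 0.79 SE, edgeR adjusted p = 0.0929, and 1.84 without that library). P4hb, another disulfide isomerase gene but no member by its symbol, had 437, 602 and 472 normalised CPM in artemisinin mice. Its model values were 837, 676 and 630, without overlap, and it did not pass (-0.50 ± 0.21 SE, edgeR adjusted p = 0.189).

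**Figure D4:**
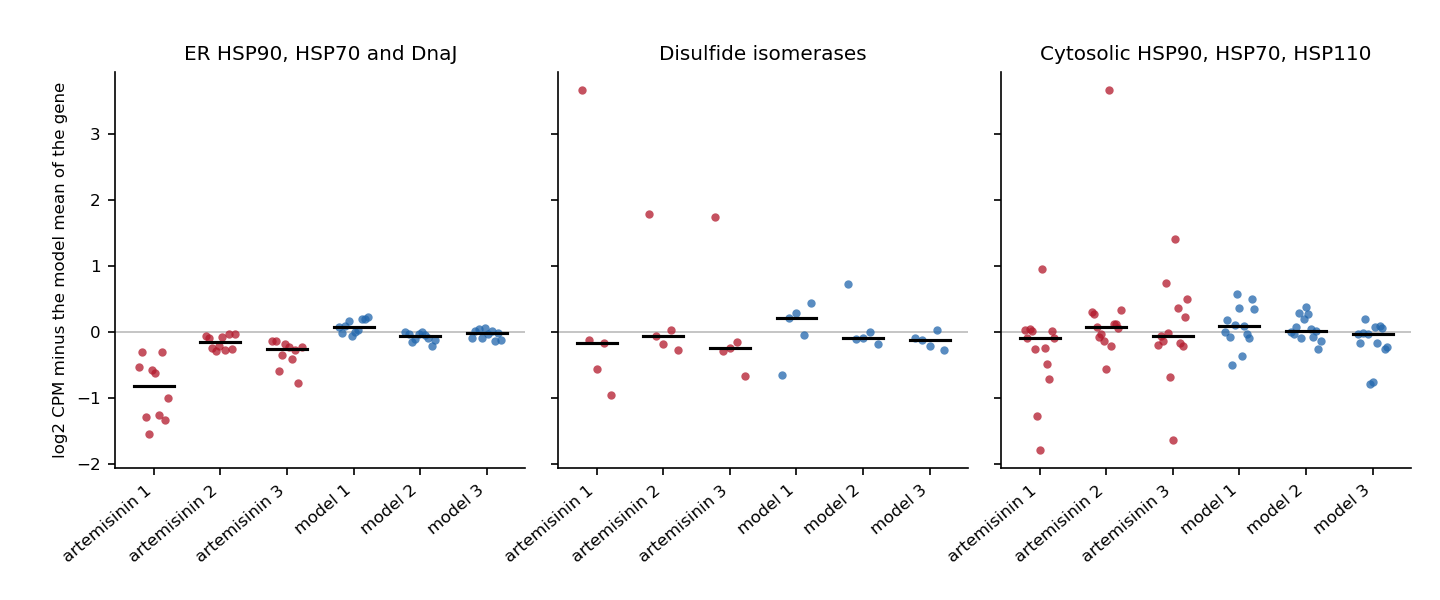
Log2 normalised CPM of each tested member minus the mean of its model values (y axis), in each mouse, for the endoplasmic reticulum, disulfide isomerase and cytosolic lists, with a bar at the median. Artemisinin replicate 1 is lowest for the endoplasmic reticulum list (median -0.81), and the cytosolic medians lie between -0.08 and 0.10 in all 6 mice.

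The unfolded protein response and the folding machinery outside the members were taken from a list of 38 genes, all tested. None was called, 13 log2 fold changes lay above 0 and 25 below 0, and the median was -0.18. Of all genes tested, 4.47% were called and 46.8% lay below 0, with a median of 0.04. At an unadjusted p under 0.05 edgeR gave 2 higher and 4 lower, against 13.7% and 11.0% of all genes. Ern1, which encodes the sensor Ire1alpha, had the smallest p, with 45.7, 66.1 and 58.4 normalised CPM in artemisinin mice, against 91.6, 91.7 and 98.8 in model mice. The groups were well apart, and the log2 fold change of -0.73 ± 0.16 (SE) missed the threshold narrowly (edgeR adjusted p = 0.0507). Sel1l, a subunit of the complex that removes misfolded proteins from the organelle, followed with 137, 183 and 161 in artemisinin mice, against 271, 224 and 232 in model mice (-0.60 ± 0.17 SE, edgeR adjusted p = 0.0922). Ppp1r15a (Gadd34), which restores translation after stress, had 84.5, 51.0 and 69.7 in artemisinin mice, against 37.3, 48.6 and 50.3 in model mice (0.59 ± 0.21 SE, edgeR adjusted p = 0.154).

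Markers of secretory cells did not all run in 1 direction. The alveolar type 2 markers given above were lower in all 3 artemisinin mice. Club and secretory cell markers (7 genes) summed to 72631, 20521 and 28143 normalised CPM in artemisinin mice, against 7972, 20236 and 13141 in model mice. Artemisinin replicate 1 was highest, and artemisinin replicate 2 was level with model replicate 2. Scgb1a1 made up most of each sum. None of the 7 was called, and in 1 the groups did not overlap. Muc5b had a log2 fold change below 0 (-0.18), and the others were above 0. Plasma cell markers (7 genes) summed to 971, 1038 and 1616 in artemisinin mice, against 1415, 1393 and 1195 in model mice, so the groups overlapped. Of these 7, Sdc1 fell (log2 fold change -1.43, edgeR adjusted p = 0.0496), and 5 had log2 fold changes above 0 that did not pass. The alveolar type 2 markers summed to 15356, 20743 and 6744 normalised CPM in artemisinin replicates 1, 2 and 3. Their relation to the endoplasmic reticulum list was not tested. Artemisinin replicate 1, lowest for the endoplasmic reticulum list, had a shift with gene length. Of 4 groups of genes of equal size by length, the longest had a median of -0.19, -0.05 and -0.06 log2 relative to the model mean in artemisinin replicates 1, 2 and 3, against -0.05, 0.03 and 0.03 in model mice. The shortest had 0.31, 0.10 and 0.09 in artemisinin mice, against 0.06, -0.03 and -0.03 in model mice. The endoplasmic reticulum list had a median length of 3531 bases, where the median of all genes tested was 3488. Hspa13, Dnajb14, Dnajb9 and Dnajc3, lowest in log2 fold change in this list, had 5032, 7489, 1865 and 5190 bases. The small heat shock lists were shorter, with medians of 1872 bases for those of muscle and 1495 for the others, and so was the testis and cilium DnaJ list at 1382, all under the 2145 bases that bound the shortest group. Hspe1 has 768 bases, and the called genes Hspb7, Dnajb5 and Dnajc28 have 2768, 4033 and 3582. The part of cell makeup and of the length shift in these results was not tested.

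The 8 mitochondrial chaperones had 0 calls, 4 log2 fold changes above 0 and 4 below 0, and 1 gene higher at an unadjusted p under 0.05, Hspe1. That threshold gave 13.7% of all genes higher and 11.0% lower. The chaperonin Hspd1 (Hsp60) and its lid Hspe1 (Hsp10) are transcribed from a shared promoter region on chr1, and their annotations overlap by 96 bases. Hspe1 had 66.9, 52.5 and 52.1 normalised CPM in artemisinin mice, against 48.1, 40.4 and 39.6 in model mice, without overlap (0.42 ± 0.16 SE, edgeR adjusted p = 0.162). Hspd1 had 109, 167 and 147 normalised CPM in artemisinin mice, against 174, 146 and 149 in model mice, with overlap (-0.15 ± 0.19 SE, edgeR adjusted p = 0.648). The log2 fold changes of the pair thus had opposite signs, neither passed, and the difference between them was not tested. Hspa9 (mortalin), the HSP70 of the mitochondrial import motor, had 194, 242 and 181 in artemisinin mice, against 264, 226 and 230 in model mice (-0.22 ± 0.17 SE, edgeR adjusted p = 0.438).

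Of the remaining members, 8 DnaJ genes had been placed in no compartment list, wherever their proteins act. The compartment lists may therefore miss some genes of a compartment. Dnajc28 (chr16:91614257-91618999) was the 1 member that fell. It had 8.17, 9.92 and 8.30 normalised CPM in artemisinin mice, against 18.2, 16.5 and 18.7 in model mice, with means of 8.80 ± 0.979 in artemisinin mice and 17.8 ± 1.15 in model mice (SD, n = 3 each). The groups were far apart relative to their spread, and the gene was 2.02-fold lower (log2 fold change -1.02 ± 0.18 SE, edgeR adjusted p = 0.0297). The call was kept without artemisinin replicate 2 and lost with any other library left out (adjusted p 0.0569 to 0.142). Dnajc22 had the largest negative log2 fold change of the members, with 11, 28 and 21 counts in artemisinin mice, against 320, 58 and 39 in model mice. The groups did not overlap, but model replicate 1 held most of its counts (-2.74 ± 0.87 SE, edgeR adjusted p = 0.118; -1.26 without that library).

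Dnajb13, a component of the radial spokes of cilia and sperm tails, had 19.2, 8.73 and 14.0 normalised CPM in artemisinin mice, against 5.62, 7.29 and 5.45 in model mice. The groups did not overlap (1.19 ± 0.32 SE, edgeR adjusted p = 0.0840), and without artemisinin replicate 2 it passed (1.44, adjusted p = 0.0268). Ciliated cell markers (10 genes) summed to 977, 623 and 753 normalised CPM in artemisinin mice, against 299, 562 and 465 in model mice, with artemisinin replicate 1 highest for both. None of these 10 was called, none was at 0 in a whole group, and their part in the values of Dnajb13 and Hspb11 was not tested. Apart from Hspb3, the untested members were Hspb9, Dnajb7 and Dnajc5b, genes known mainly from testis, with at most 14 counts in a library. Dnajb7 had 0 counts in every artemisinin mouse, against 7, 5 and 0 in model replicates 1, 2 and 3. Its annotation overlaps that of Xpnpep3 by 1186 bases, and these counts are too few for a fold change.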

How the data were processed

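RNA-seq libraries of 3 artemisinin and 3 model mice were grouped by the labels, which number the replicates. Per the labels' protocols, a mirVana kit gave total RNA and a stranded TruSeq mRNA kit the libraries. The submitters' processing notes name the builds GRCm38 and mm10. Aligner, counter and strand setting: not given in the sources used here. Overlapping genes may therefore not have been told apart, and 35 members overlap another annotated gene. The authors deposited raw read counts per gene and FPKM, which are the same counts scaled by library total and gene length (largest relative gap 1.58e-05%). The design text calls the samples mice. Nothing else says that the libraries came from separate animals, so p-values measure only the spread between these samples.

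Counts were fitted with edgeR 4.0.16 in R 4.3.3 on all 6 libraries: filterByExpr (15242 of 18238 genes kept), TMM factors (0.948 to 1.06), robust glmQLFit and glmQLFTest, with Benjamini-Hochberg adjustment over all genes tested and a threshold of 0.05. Normalised CPM are counts over the library total times its TMM factor. Standard errors were derived from each log2 fold change and its F statistic. The fit was tested on simulated counts. Alternatives were DESeq2 1.42.0, limma 3.58.1 (voom with quality weights, and trend on log2(FPKM + 0.1) or log2(FPKM + 1) with a mean FPKM of at least 0.5 or no filter), other scalings and filters, a replicate block, each library left out, and Hspa1a and Hspa1b summed, the last chosen after seeing the data.

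The members and all gene lists were chosen with earlier results of these data known, so lists are described by counts and medians without a test. The genes named were the called members, a set fixed whatever its result, the 5 largest positive and negative log2 fold changes, and in each list outside the members the called genes and the 3 smallest p. Of the list entries, 3 were matched by an older symbol. Hspb11, Cryab, Hsf1, P4hb, the untested members and the single markers were named after their values were seen. Promoters, coordinates and overlaps are RefSeq GRCm38.p6, and open reading frames were aligned with Biopython 1.88. Counts limit precision: 3 counts are 0.0859 to 0.111 normalised CPM in these libraries, which covers counting error only.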

Additional observations from a re-analysis of the deposited data

How the results depend on the processing

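Over 17 alternatives to the edgeR fit, 27 of the 31 named and tested members kept their direction throughout, and 14 also kept their side of the threshold. The 2 members called higher became 1 with no expression filter (Hspb7), 1 with limma-voom and quality weights (Dnajb5), 1 with limma on unfiltered log2(FPKM + 0.1) (Dnajb5), and 9 with DESeq2. The 1 called lower became 4 with DESeq2. DESeq2 called Dnajb13, Dnajb5, Hspa1l, Hspb1, Hspb11, Hspb2, Hspb6, Hspb7 and Pdia2 higher, and Dnaja1, Dnajc22, Dnajc28 and Hspa1b lower. With each library left out in turn, 0 to 2 members were higher and 0 to 3 lower. With a replicate block 0 were higher and 0 lower, while 65 and 63 of all genes were called. Deviations of same-numbered libraries from their group means correlated at -0.004, -0.10 and 0.03. For libraries of different number the correlations lay between -0.0993 and 0.10. With 3 libraries per group, these values cannot show whether same-numbered libraries were paired.

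Scaling by library totals moved the median of all genes to 0.15, in place of 0.04, and the list medians to 0.0936 (cytosolic and nuclear DnaJ), 0.11 (cytosolic HSP90 and HSP70), 0.17 (mitochondrial) and -0.0550 (other DnaJ). On log2(FPKM + 0.1) these were 0.0531, 0.10, 0.17 and -0.0618, without a filter 0.0799, 0.10, 0.17 and -0.0618, and on log2(FPKM + 1) the DnaJ lists stood at 0.0477 and -0.0557. With a library left out the medians spanned -0.0758 to 0.10 (cytosolic and nuclear DnaJ), -0.10 to 0.0757 (cytosolic HSP90 and HSP70) and 0.92 to 2.37 (muscle small heat shock genes). Signs turned with a library left out for Hspd1 (-0.29 to 0.0085), Hsp90aa1 (-0.0716 to 0.14), Hsp90ab1 (-0.0768 to 0.15) and Hspa8 (-0.0909 to 0.36). The cause of these changes was not tested.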
